A study of Mus musculus with 6 samples.

Results

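The actin cytoskeleton genes described here are 40 genes of actin filaments and of the proteins that bind them, taken by symbol from the deposited table of 32801 genes. All 40 symbols were found, and all 40 passed the filter on low values that left 16442 genes for testing. The RNA came from regulatory T cells (Treg) of the thymus, which hold other immune cells in check, sorted as GFP-, CD4+CD8- and Thy1.1+ cells. NOD mice, which become diabetic through autoimmunity, gave 3 libraries, and C57BL/6 (B6) mice, whose genome is the mm10 reference, gave the other 3. All mice were 3 weeks old, and the labels name no agent. They do not state what GFP and Thy1.1 report or whether libraries of a strain came from separate animals. The p-values therefore measure the spread between these libraries, which may be technical.

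Actin is a small globular protein that assembles into polar filaments. Profilin and the thymosins hold monomers, the Arp2/3 complex and formins start or lengthen filaments, capping proteins close the fast-growing end, and cofilin and gelsolin take filaments apart. Cross-linkers, tropomyosins, myosin and the ezrin-radixin-moesin (ERM) linkers then shape the network and tie it to the membrane. In T cells this machinery drives migration and builds the contact with antigen-presenting cells, and loss of WASP or of coronin 1A causes immune deficiency.

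The pair of sequences below carries a finding on tropomyosin that is described with that family. Tpm3 (chromosome 3, 90072649 to 90100902, plus strand) has 8 exons in the transcript compared, and its retrocopy Tpm3-rs7 (chromosome 14, 113314608 to 113316754, plus strand) has 1. The stretch shown is coding sequence of the GENCODE M21 transcripts on GRCm38, the assembly that mm10 names, at transcript bases 220 to 319 of Tpm3 and 96 to 195 of Tpm3-rs7. Capitals mark the bases that differ.
Tpm3: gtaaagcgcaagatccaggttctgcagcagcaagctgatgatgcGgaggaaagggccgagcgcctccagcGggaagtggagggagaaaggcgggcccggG
Tpm3-rs7: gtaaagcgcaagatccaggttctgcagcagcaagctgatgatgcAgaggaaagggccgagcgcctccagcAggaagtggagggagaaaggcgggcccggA
These 3 differences are the only ones among the 744 aligned coding bases. Over 2103 aligned bases of the whole transcripts there were 14 differences (99.3% identity), and the longest identical run was 624 bases.

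Each value, here called a normalized count, is a number of reads after scaling by the size factor of its library and rounding. The values summed to between 16097369 and 17625903 per library. Unscaled depth, in reads assigned to the genes of the deposited table, was estimated from values that rounding skips or doubles. B6 library 20 was shallowest (15500000 reads) and NOD library 18 deepest (21600000). The defining Treg transcripts were present in every library, with Foxp3 at 1701 to 2446 normalized counts and Il2ra at 3763 to 5761. In bulk samples such as these, fewer cells of a type and less RNA per cell cannot be told apart.

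Of the 40 genes, 33 did not pass the test between strains and 7 were called. Rflnb, which encodes a filamin-binding protein, and Tmsb10, which encodes a monomer-binding thymosin, were higher in NOD. Ttn (titin), Capg (a capping protein), Actn1 (alpha-actinin 1), Tpm3 (a tropomyosin) and Lcp1 (L-plastin) were lower. The test was limma-trend on log2(value + 1) over all genes, with a call at a Benjamini-Hochberg adjusted p below 0.05. Over all genes tested, 9.89% were called, 4.59% as higher and 5.30% as lower in NOD. The share of members called was 17.5%, but the members were chosen with earlier results of these data known. This share is therefore no test of an excess. The Tpm3 call was also lost once the row of its retrocopy was added. An unadjusted limma p below 0.05 was reached by 11 members and by 3340 of all 16442 genes tested. Without NOD library 10, 4 members were higher and 6 lower, and without B6 library 4, 1 was higher and 4 lower. Over all genes, the fit without NOD library 10 called 763 higher and 1011 lower of 17000. The fit without B6 library 4 called 536 and 569 of 17006. The strains did not overlap in any library for 13 members, 5 higher and 8 lower in NOD, where 24.1% of all genes tested did not overlap. The median log2 fold change (NOD minus B6) was -0.0012 over the members and 0.014 over all genes tested.

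For 25 of the 40 members the 95% interval of the log2 fold change lay inside plus or minus 0.5, which bounds a difference of either sign below that size. The same held for 29.9% of all genes tested and for 66.1% of the 5946 genes with a mean at or above that of the least abundant member (442 normalized counts). The fold changes understate the difference of genes with low values. In the authors' deposited table, 9 of the 40 members had an adjusted p below 0.05 (4 higher, 5 lower), and all 7 genes called here were among them.

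**Figure D1:**
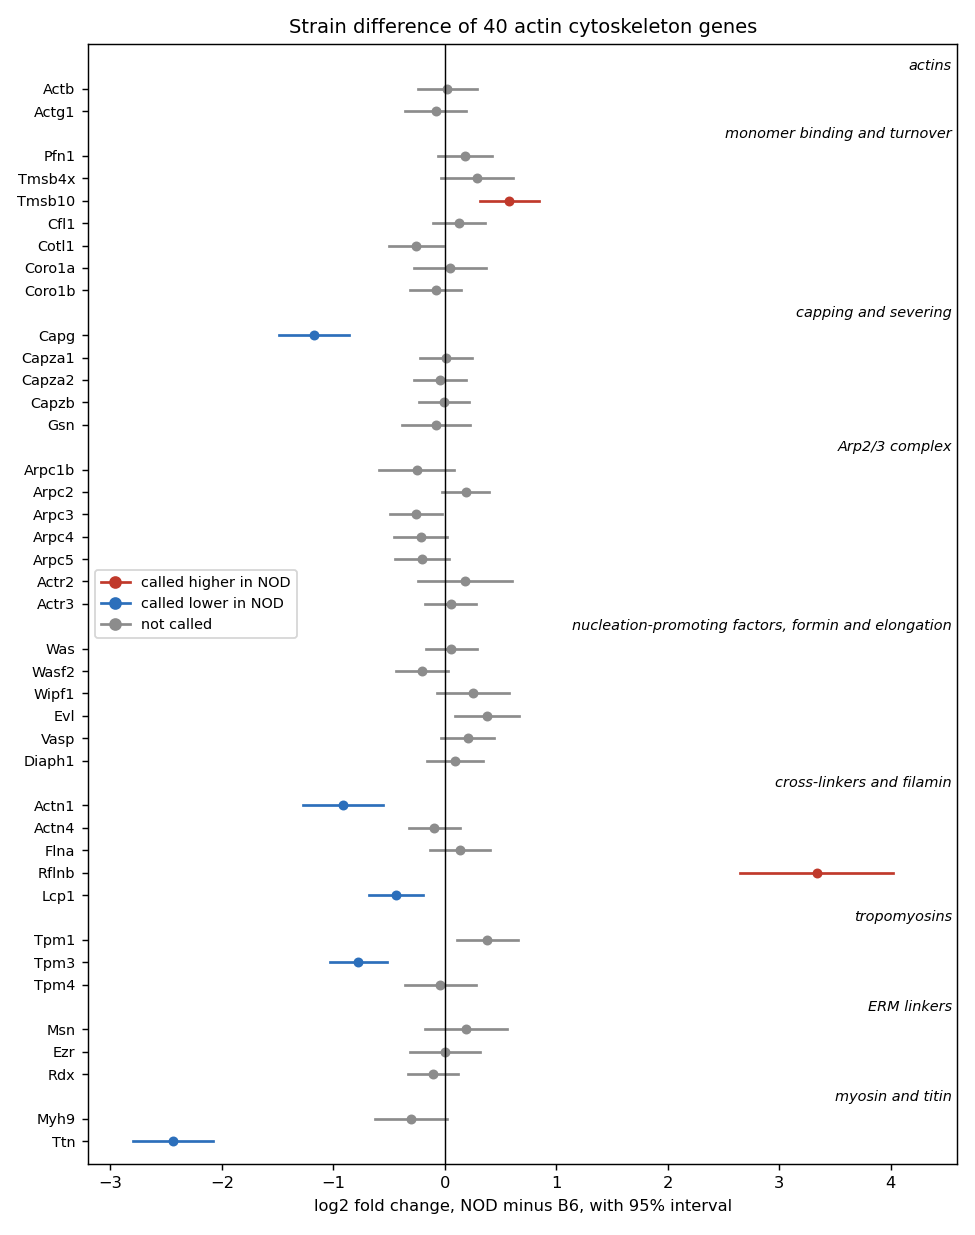
Log2 fold change (NOD minus B6, x axis) of the 40 genes, grouped by role, with points for limma estimates and bars for their 95% intervals. Rflnb stands far to the right at 3.34 and Ttn far to the left at -2.44, while the intervals of 25 genes lie inside plus or minus 0.5.

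The actins themselves did not pass the test. Actb, which encodes beta-actin (chromosome 5, 142903115 to 142906754, mm10), stood at 72088, 64631 and 65881 normalized counts in NOD libraries 2, 10 and 18, and at 67992, 65366 and 65852 in B6 libraries 4, 12 and 20. The strains overlapped, and the log2 fold change was 0.02 (95% interval -0.24 to 0.29, limma adjusted p = 0.95). Actg1, which encodes gamma-actin, stood at 13120, 17354 and 13849 in NOD and 14714, 15712 and 16174 in B6, also with overlap (-0.08, interval -0.35 to 0.19, adjusted p = 0.80). The log2 ratio of Actb to Actg1 was 2.20 ± 0.28 in NOD and 2.10 ± 0.10 in B6 (mean ± SD of 3 libraries each, exact permutation p = 0.60). Per kilobase of annotated exon, Actb held 25208 ± 1491 in NOD and 24787 ± 522 in B6 (mean ± SD of 3 libraries each), and Actg1 5558 ± 852 and 5844 ± 281. Other genes' transcripts hold 44.9% of the 50-base windows of Actg1 and 12.2% of those of Actb, so these levels and their ratio may include or lack reads of copies.

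Actg1 carries a CArG box, the motif bound by serum response factor (SRF), which regulates many actin genes. The box lies upstream of its RefSeq start (GRCm38.p6), as it does for Vcl, the gene of vinculin, an adhesion protein that is no member and is described with the other pathway genes. The windows shown are those of the most abundant member with a box and of the one called gene of the pathway lists with a box. Capitals mark the box.
Actg1, chr11:120348551-120348610, minus strand: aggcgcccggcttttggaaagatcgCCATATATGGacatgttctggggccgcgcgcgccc
Vcl, chr14:20929148-20929205, plus strand: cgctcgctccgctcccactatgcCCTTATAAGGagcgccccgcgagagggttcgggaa
The box, which reads as a box on both strands, was found in 2 of the 36 members with a promoter window (250 bases before to 50 after the start), Actg1 and Arpc4. Of 110 pathway genes with a window 6 held it, Vcl and also Fhl2, Myl6, Myo1e, Srf and Trip10, none of which was called by limma (adjusted p = 0.22 to 0.90). Of the 10282 tested genes with a window, 1.60% held it. A match is a description of these letters only.

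Among the genes of monomer binding and filament turnover, 1 of 7 was called, against 9.89% of all genes tested. Tmsb10 (chromosome 6, 72957347 to 72958748, mm10) stood at 5565, 6812 and 5201 normalized counts in NOD and 3634, 3944 and 4121 in B6. Every NOD library lay above every B6 library, and the gene rose by a fold of 1.49 (log2 fold change 0.58 ± 0.12 SE, limma adjusted p = 0.0088). The call was lost without B6 library 4 (adjusted p = 0.054) and without the variance trend (0.082). Of the 50-base windows of its transcripts, 27.0% also occur in transcripts of other genes, so its reads may be shared with copies.

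Tmsb4x, the more abundant thymosin, stood at 45606, 44874 and 43497 in NOD and 29791, 37137 and 44091 in B6. B6 library 20 lay inside the NOD range, and the log2 fold change of 0.29 (interval -0.03 to 0.61) did not pass the test (limma adjusted p = 0.31). Per kilobase of exon Tmsb4x held 32574 ± 781 in NOD and 26992 ± 5216 in B6, the highest level among the 40 genes in both strains. Pfn1 (profilin 1, which feeds monomers to growing ends) stood at 5529 to 6345 in NOD and 4954 to 5959 in B6. Cfl1 (cofilin 1, which severs filaments) stood at 7709 to 8177 and 6556 to 7992. Both ranges overlapped.

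Cotl1, which encodes the filament-binding protein coactosin, stood at 4352, 5423 and 4422 in NOD and 5500, 5624 and 5717 in B6. All NOD values were lower, but the log2 fold change of -0.25 ± 0.11 did not pass the test (limma adjusted p = 0.22). Leaving out NOD library 10 made it pass (adjusted p = 0.039). Coro1a, the gene of coronin 1A, stood at 10144, 15074 and 10187 in NOD against 10815 to 11649 in B6. NOD library 10 alone was high, and the sign of the difference turned without it (0.05 with all libraries, -0.14 without). Coro1b, the gene of coronin 1B, stood at 1972 to 2135 in NOD and 1982 to 2362 in B6.

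Of the capping and severing genes, Capg fell and the others did not pass the test. Capg (chromosome 6, 72544391 to 72562983, mm10) stood at 1988, 2482 and 1633 normalized counts in NOD and 4511, 4784 and 4253 in B6. The lowest B6 library stood well above the highest NOD library, a fold of 2.25 (log2 fold change -1.17 ± 0.14 SE, limma adjusted p = 0.00025). The call held in all 17 alternative fits. CapG closes fast-growing ends without severing the filament.

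The subunit genes of the other capping protein, Capza1, Capza2 and Capzb, had log2 fold changes of 0.01, -0.04 and -0.0048, each with an interval inside plus or minus 0.5. Capza2, the most abundant, stood at 5149, 4795 and 4691 in NOD and 4955, 4563 and 5579 in B6. Capzb stood at 2186, 2236 and 2122 in NOD and 2212, 2361 and 2006 in B6, so that the B6 values enclosed the NOD values. Gsn, the gene of gelsolin and a relative of Capg, stood at 387 to 491 in NOD and 424 to 481 in B6 (-0.08, interval -0.38 to 0.22). Of the 50-base windows of Capza1, 72.7% also occur in transcripts of other genes.

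Capg and Lcp1 are also expressed by myeloid cells. Of 12 myeloid and dendritic cell markers, 6 were tested, 0 were higher and 1, Tyrobp, was lower in NOD (5, 3 and 13 normalized counts against 26, 18 and 44 in B6). The list summed to 747 to 1110 in NOD and 709 to 866 in B6, mostly through Cst3, and the macrophage marker Adgre1 stood at 0 to 2 and 9 to 22. All of these markers but Cst3 stayed at or below 99 normalized counts in every library. Lyz2 (means of 7 in NOD and 28 in B6), Fcer1g (4 and 14) and Itgax (3 and 9) also had lower means in NOD. A higher mean in NOD was seen for Cst3 (764 against 545) and Cd14 (11.3 against 8) only, and neither was called. The part of such cells in the Capg and Lcp1 differences was not tested.

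None of the 7 genes of the Arp2/3 complex, which starts branches on existing filaments, passed the test with all libraries. An unadjusted p below 0.05 was reached by 3340 of all 16442 genes tested and by 1 of these 7. Arpc3 was that gene, at 3816, 3977 and 3893 normalized counts in NOD and 4123, 5007 and 4898 in B6. All NOD values were lower, with a log2 fold change of -0.26 ± 0.11 (limma adjusted p = 0.19). Arpc5 (4548 to 4796 against 4802 to 6101) was also lower in every NOD library, and Arpc2 (4821 to 5134 against 4173 to 4560) was higher in every NOD library.

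Arpc4 stood at 1478 to 1717 in NOD and 1697 to 1940 in B6. Arpc1b stood at 2850, 4471 and 3232 in NOD and 4441, 4131 and 3787 in B6, and without NOD library 10 it passed the test (log2 fold change -0.44, limma adjusted p = 0.029) where with it the value was -0.25 (0.43). The actin-related subunit genes Actr2 and Actr3, which seed the branch, had log2 fold changes of 0.18 (interval -0.24 to 0.60) and 0.06 (-0.17 to 0.28). Actr3, which shares 44.5% of its 50-base windows with other genes, stood at 9885, 8798 and 9592 in NOD and 9107, 8383 and 9745 in B6, with overlap. Actr2 stood at 9757, 6365 and 8744 in NOD and 7722, 5460 and 8827 in B6, with NOD library 10 and B6 library 12 the lowest of their strains. The second isoform genes Arpc1a (0.03) and Arpc5l (0.02), which are no members, had fold changes near 0 as well.

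Of the 6 genes that activate nucleation or lengthen filaments, 0 passed the limma test. An unadjusted p below 0.05 was reached by 3340 of all 16442 genes tested and by 1 of these 6. That gene, Evl, encodes a protein of the Ena/VASP family, which protects growing ends. It stood at 928, 777 and 933 normalized counts in NOD and 714, 724 and 589 in B6, with every NOD library higher (log2 fold change 0.38 ± 0.13, limma adjusted p = 0.11). It passed without NOD library 10 (adjusted p = 0.045). Its adjusted p in the authors' deposited table was 0.026, with a log2 fold change of 0.38. Vasp, of the same family, stood at 3837, 4682 and 4169 in NOD and 3838, 3408 and 3722 in B6, with a single normalized count of overlap (0.21, interval -0.03 to 0.45).

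Was, which encodes WASP, the Arp2/3 activator of blood cells, stood at 1342, 1431 and 1302 in NOD and 1384, 1225 and 1300 in B6 (log2 fold change 0.06, interval -0.17 to 0.29). Its stabilizing partner gene Wipf1 stood at 1244 to 1782 and 1164 to 1403. Wipf1 did not pass with all libraries (limma adjusted p = 0.39) and did without NOD library 10 (0.046). Wasf2, the gene of the WAVE2 activator, stood at 2759 to 3147 in NOD and 3121 to 3696 in B6. The log2 ratio of Was to Wasf2 was -1.11 ± 0.06 in NOD and -1.38 ± 0.19 in B6 without overlap (exact permutation p = 0.10, the smallest that 3 against 3 libraries allow, and 0.40 adjusted over 12 ratios). Diaph1, a formin gene, stood at 2665 to 3193 and 2507 to 2990.

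Of the 5 genes of cross-linkers and their partner, 3 were called, where 9.89% of all genes tested were. Rflnb (refilin B, chromosome 11, 76019194 to 76027782, mm10) stood at 913, 1006 and 1039 normalized counts in NOD and 133, 50 and 135 in B6. The strains were far apart, and the gene rose by a fold of 10.1 (log2 fold change 3.34 ± 0.31 SE, limma adjusted p = 3.6e-05). Refilins bind filamins, which join crossing filaments, and favour bundles. Its call held in all 17 alternative fits, with log2 fold changes of 2.85 to 3.58, and no annotated gene overlaps it. Rflna, the other refilin gene, stood at 2 to 16 in NOD and 7 to 20 in B6.

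Flna, the gene of filamin A, was not called (24218, 29002 and 23547 in NOD, 22466, 25160 and 21940 in B6). The log2 fold change was 0.14 (interval -0.13 to 0.40), and the strains overlapped. Flnc, of the same family, stood at 0 or 1 in every library.

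Actn1 (chromosome 12, 80167547 to 80260371, mm10), which encodes a filament cross-linker of adhesion sites, stood at 1012, 620 and 886 normalized counts in NOD and 1482, 1556 and 1616 in B6. All NOD libraries were lower, with library 10 the lowest, and the fold was 1.88 (log2 fold change -0.91 ± 0.16, limma adjusted p = 0.0035). The call was lost without the variance trend (adjusted p = 0.053). The paralog Actn4 stood at 1727 to 1904 in NOD and 1805 to 2097 in B6 (-0.09, interval -0.32 to 0.14). The log2 ratio of Actn1 to Actn4 was -1.14 ± 0.38 in NOD and -0.32 ± 0.16 in B6 without overlap (exact permutation p = 0.10, adjusted p = 0.40).

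Lcp1, the gene of L-plastin, which bundles filaments in blood cells, stood at 11431, 9765 and 9286 in NOD and 13740, 14386 and 13015 in B6. All NOD values were lower (fold 1.35, log2 fold change -0.44 ± 0.11, limma adjusted p = 0.029). This was the least stable of the 7 calls in number of fits lost, 6 of 17. Leaving out NOD library 10 ended it (adjusted p = 0.0502), as did dropping NOD library 18 (0.14), B6 library 4 (0.094) or, separately, B6 library 12 (0.12). It also ended without the variance trend (0.14) and without NOD library 10 and B6 library 12 together (0.15). Pls3, the gene of a related plastin and no member, stood at 4, 0 and 2 in NOD and 36, 37 and 52 in B6 (adjusted p = 0.001).

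**Figure D2:**
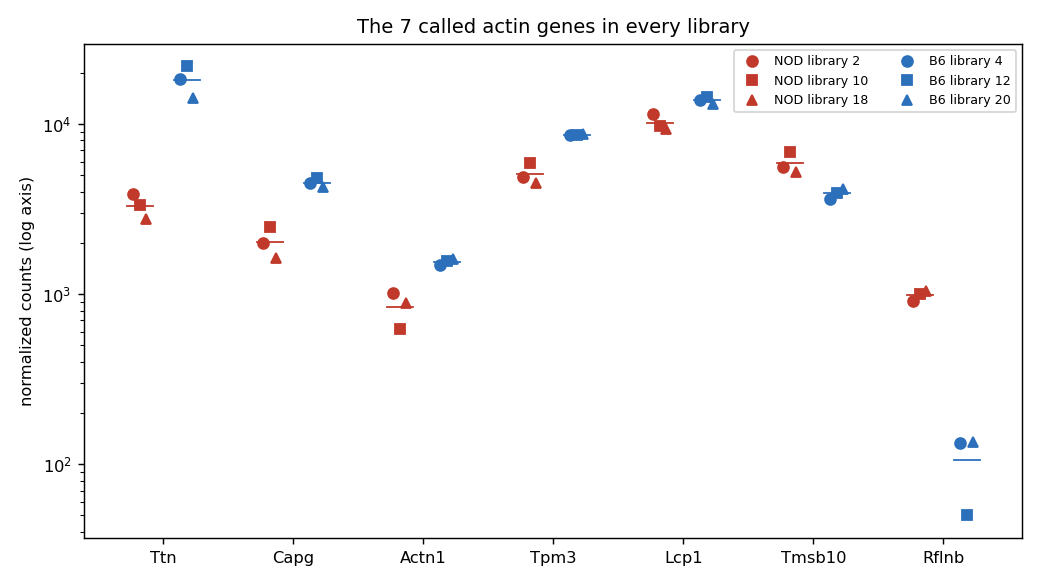
Normalized counts (y axis, log scale) of the 7 called genes in each library, with horizontal lines at the strain means. For each gene the 3 NOD values lie on one side of the 3 B6 values, and Rflnb runs from 50 to 135 in B6 and from 913 to 1039 in NOD.

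Tropomyosins lie along filaments and set which proteins can bind them. Tpm3 stood at 4885, 5874 and 4478 normalized counts in NOD and 8559, 8642 and 8691 in B6, a fold of 1.71 without overlap (log2 fold change -0.77 ± 0.11 SE, limma adjusted p = 0.001). The row of its retrocopy Tpm3-rs7 stood at 4349, 3983 and 3932 in NOD and 60, 62 and 93 in B6 (5.84 ± 0.17). Against B6, the NOD mean of Tpm3 fell by 3552 normalized counts and that of Tpm3-rs7 was 4016 higher. Summed, the 2 rows reached 9234, 9857 and 8410 in NOD and 8619, 8704 and 8784 in B6, and the strains overlapped.

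With the 2 rows summed the log2 fold change was 0.072 (limma adjusted p = 0.78), so the direction turned and the Tpm3 call was lost. The copy held 44.8% ± 3.8 of the sum in NOD against 0.822% ± 0.205 for B6 (SD, n = 3 each). Of the 50-base windows of the Tpm3 transcript shown above, 66.8% occur unchanged in the copy. How the counting assigned reads that match both is not given in the sources used here, and its part in the difference was not tested.

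**Figure D3:**
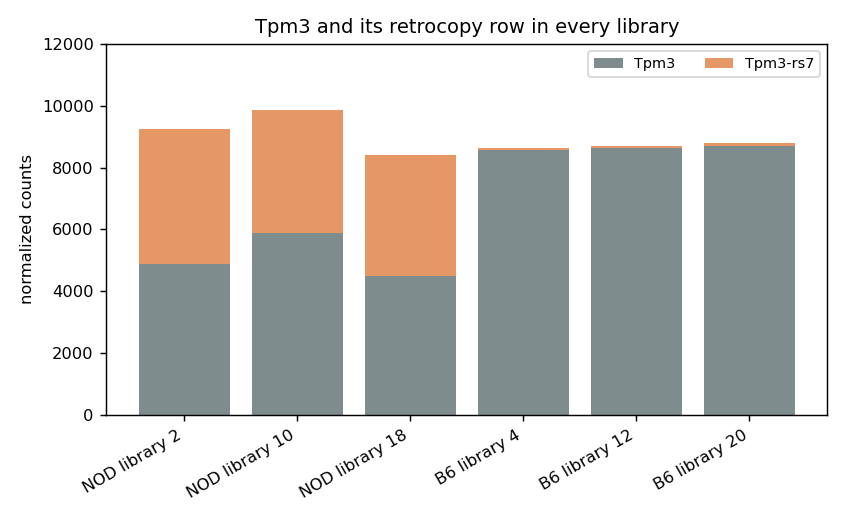
Stacked bars of normalized counts (y axis) for Tpm3 and Tpm3-rs7 in each library. The stacks reach 8410 to 9857 in NOD and 8619 to 8784 in B6, while the Tpm3-rs7 segment is large in NOD only.

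Tpm1 stood at 865, 1012 and 830 in NOD and 672, 751 and 650 in B6. Every NOD library was higher, but the log2 fold change of 0.38 ± 0.12 did not pass the test (limma adjusted p = 0.086). It passed with a term for NOD library 10 and B6 library 12, which leaves the fold change as it is (adjusted p = 0.028). The authors' deposited table gives it an adjusted p of 0.037. Tpm4 stood at 8570, 8450 and 9431 in NOD and 8123, 7868 and 11583 in B6, so that B6 library 20 was the highest of all (-0.04, interval -0.36 to 0.28). Per kilobase of exon Tpm4 held 4002 ± 243 in NOD and 4172 ± 942 in B6, the highest level of the family, and Tpm1 139 ± 14.9 and 107 ± 8.2.

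The ERM linkers tie filaments to the membrane, and none of the 3 genes was called or had an unadjusted p below 0.05 with limma. Msn (moesin) stood at 12722, 8990 and 13598 normalized counts in NOD and 10954, 8416 and 11339 in B6 (log2 fold change 0.19, interval -0.18 to 0.56). NOD library 10 and B6 library 12 were the lowest of their strains. Ezr (ezrin) stood at 6854, 9409 and 7102 in NOD and 8628, 7897 and 6689 in B6 (0.0024, interval -0.31 to 0.31), with NOD library 10 the highest. Rdx (radixin) stood at 3415 to 3854 and 3591 to 4054.

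Myh9, the heavy chain of the main nonmuscle myosin of blood cells, stood at 28548, 37644 and 30390 in NOD and 43267, 42369 and 33614 in B6. The strains overlapped through NOD library 10 and B6 library 20, and the log2 fold change of -0.31 ± 0.15 did not pass the test (limma adjusted p = 0.28). With library weights it did (-0.44, adjusted p = 0.023).

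Ttn, the gene of titin, the giant spring protein of the muscle sarcomere, was the member with the largest fall. Found at 76703980 to 76982547 of chromosome 2 in mm10, it had 3852, 3312 and 2768 normalized counts in NOD and 18289, 21729 and 14230 in B6. The lowest B6 value was well above the highest NOD value, a fold of 5.43 (log2 fold change -2.44 ± 0.16 SE, limma adjusted p = 2.6e-06), and the call held in all 17 alternative fits. Its annotated exons cover 116825 bases. Per kilobase it therefore stood at 28.3 ± 4.6 in NOD and 155 ± 32.1 in B6, the lowest of the 40 genes in NOD.

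Of 15 striated muscle markers looked up beside Ttn, 12 were found and 7 were tested. By limma 0 of the 7 were called, against 9.89% of all genes tested, and Actn3 alone had an unadjusted p below 0.05. Actn3 was lower in every NOD library (9, 16 and 12 against 18, 26 and 27 in B6, log2 fold change -0.90, limma adjusted p = 0.23). The log2 fold change was also negative for Neb (-0.06) and Tnnt3 (-0.44). It was positive for Actn2 (0.09), Ckm (0.22), Mylpf (0.33) and Ryr1 (0.25). The list summed to 3903 to 4872 in NOD and 3503 to 5480 in B6, nearly all from Neb (3696 to 4691 against 3335 to 5215), the gene of nebulin, a thin-filament protein. Skeletal actin Acta1 stood at 2 to 6, the creatine kinase gene Ckm at 7 to 18 and desmin (Des) at 0 in every library. One annotated gene, Gm13938, lies on the opposite strand within Ttn, and without a stated strand setting their reads cannot be told apart. The same holds for 18 of the 40 members, Actn1 and Lcp1 among them, which each overlap 2 genes on the opposite strand.

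**Figure D4:**
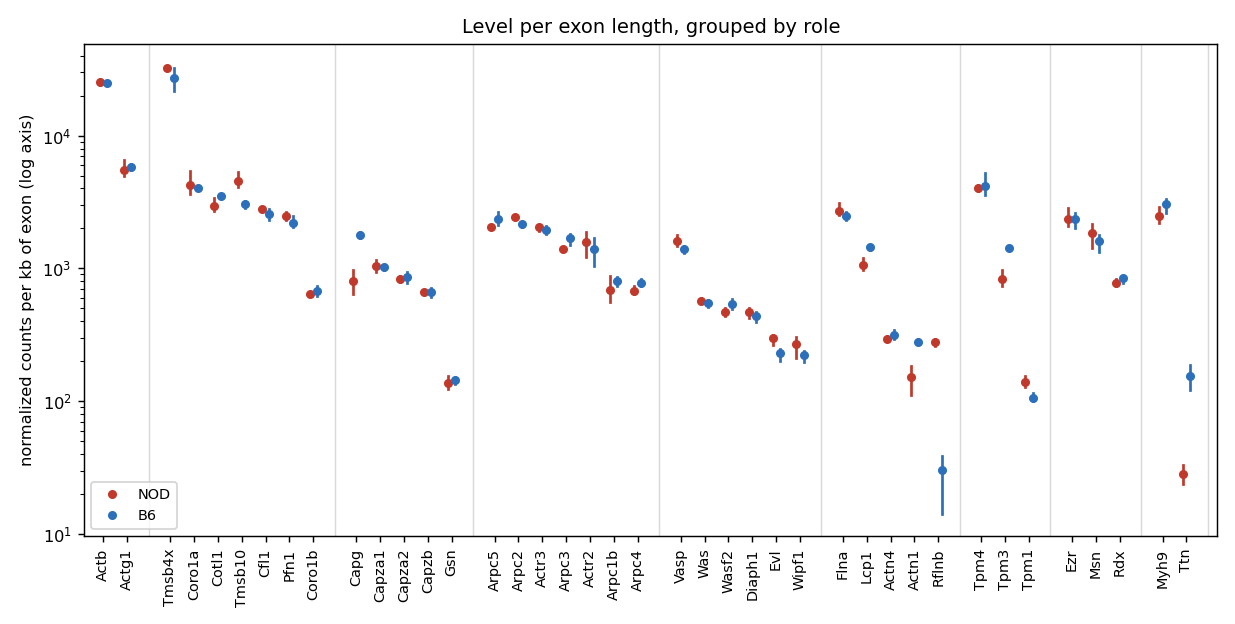
Normalized counts per kilobase of annotated exon (y axis, log scale) for the 40 genes, grouped by role, with points for strain means and bars from the lowest to the highest of 3 libraries. Tmsb4x and Actb stand highest in both strains, and the strains separate most for Rflnb and Ttn.

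Genes of the same machinery outside the 40 were taken from 5 lists, of which 4 are described. Of 135 listed symbols, 132 were found and 127 were tested. Of those tested, 8 rose and 7 fell in NOD, or 11.8% against the 9.89% of all genes. These lists, too, were chosen with earlier results of these data known. Higher calls numbered 3 without NOD library 2, 4 without NOD library 10, 2 without NOD library 18, 3 without B6 library 4, 3 without B6 library 12 and 5 without B6 library 20. Lower calls numbered 4 when NOD library 18 was dropped, likewise for B6 library 4 and for B6 library 20, and 5 to 10 otherwise. The calls over all genes ran from 1105 (without B6 library 4) to 1774 (without NOD library 10), against 1626 with all libraries. Without the variance trend the calls of Gmfg, Actr3b, Myh10 and Mkl1, described next, were lost.

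Of 25 tested genes of the WAVE complex, WASP partners and formins, 0 were called by limma. An unadjusted p below 0.05 was reached by 5 of these 25 and by 3340 of all 16442 genes tested. Of 44 tested turnover, bundling and linker genes, 5 rose and 2 fell (15.9% called, against 9.89% of all genes tested), with Pls3 among the latter. Vcl stood at 774, 1007 and 842 in NOD and 366, 443 and 385 in B6, a fold of 2.19 without overlap (log2 fold change 1.13 ± 0.14, adjusted p = 0.00027). It was called in all 17 alternative fits. Actr3b, which encodes a relative of Actr3, stood at 89, 149 and 85 against 47, 52 and 49 (fold 2.09, limma adjusted p = 0.026). It was no longer called without NOD library 10 (0.076), nor when any single B6 library was dropped (0.055 to 0.093). Gmfg, which encodes a debranching factor, was higher (0.47, adjusted p = 0.0497), a call that also ended with a pseudocount of 0.5 (0.0517), with other scalings (0.0519 and 0.0508) and without any library but B6 library 20 (0.087 to 0.21).

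Of 16 tested nonmuscle myosin genes, 1 was called (6.25%, against 9.89% of all genes tested). This gene, Myh10, rose, at 263, 264 and 267 in NOD and 167, 158 and 94 in B6 (log2 fold change 0.96 ± 0.22, limma adjusted p = 0.016). The call was lost without NOD library 2 (0.052) or NOD library 18 (0.067). Of 7 tested genes of the SRF list, 1 rose (Vcl) and 1 fell (28.6% called, against 9.89% of all genes tested). The one that fell, Mkl1, encodes an actin-sensing partner of SRF (-0.37 ± 0.10, adjusted p = 0.039), a call lost without any library but NOD library 10 (0.063 to 0.17). Srf itself stood at 614, 1136 and 779 in NOD and 791, 857 and 692 in B6.

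The 40 genes together held 1.98% ± 0.06 of normalized counts in NOD against 2.14% ± 0.09 for B6 (SD, n = 3 each), without overlap (exact two-sided permutation p = 0.10, the smallest this design allows). Without Ttn the difference went from -0.16 to -0.07 percentage points, and the exact p was 0.40. Of 12 ratios within families, those of Tpm3 to Tpm4, Actn1 to Actn4 and Was to Wasf2 did not overlap between strains. Each had an exact permutation p of 0.10, or 0.40 adjusted over the 12 ratios. Of all single genes tested, 24.1% did not overlap. The ratio of Tpm3 to Tpm4 uses the Tpm3 row alone, whose call was lost once Tpm3-rs7 was added.

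Libraries of a strain were not equally alike. NOD library 10 was the farthest of its strain's 3 libraries from their mean for 27 of the 40 members (67.5%), against 48.9% of all genes tested. Relative to the other libraries of its strain it was high in Coro1a (log2 0.57), Arpc1b (0.56), Capg (0.46) and Ezr (0.43) and low in Actn1 (-0.61), Msn (-0.55) and Actr2 (-0.54). B6 library 12 deviated in the same direction as NOD library 10 for 31 of the 40 members, among them Actr2 (-0.60) and Msn (-0.41). Over all genes tested the directions were the same for 9883 of 16442. Over the members the deviations of NOD library 10 and B6 library 12 correlated at 0.34. Those of NOD library 18 correlated at 0.46 with B6 library 20 and at -0.54 with B6 library 12. The labels name no batch. Without NOD library 10 and B6 library 12 together, 2 members were higher and 4 lower, and with a term for both 3 were higher and 5 lower. Over all genes, the first of these fits called 1175 of 16494 and the second 2065 of 16442.

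**Figure D5:**
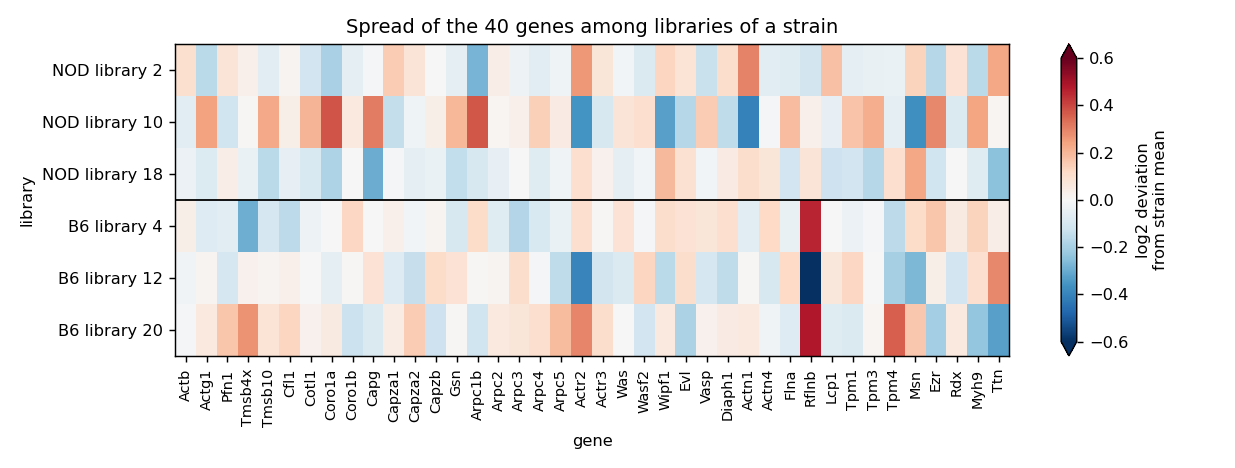
Log2 deviation of each of the 40 genes (x axis) from its strain mean in each library (y axis), in colour from -0.6 to 0.6. NOD library 10 shows the strongest colours among NOD libraries, and Rflnb is far lower in B6 library 12 than in the other B6 libraries.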

How the data were processed

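Total RNA of sorted thymic Treg was sequenced after a TruSeq Standard Total RNA LT preparation, per the labels' protocols. Trimmomatic, STAR, DESeq2 and mm10 are named in the submitters' processing notes; a counter, gene annotation or strand option was not given in the sources used here. Sample columns of the deposited table are marked as normalized, per the file headers, and are handled as scores. Their whole numbers and regular gaps or doublings are those of reads scaled per library and then rounded, taken here as DESeq2 size factors applied by the authors. The deposited table also holds the authors' log2 fold change, its error and their p-values, and its mean level is not the mean of these 6 columns. Columns were tied to strains by name. Their numbers are not the labels' replicate numbers, and 0 sample columns were left unused.

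Genes that reached 10 normalized counts in 3 or more libraries (2 with a library left out) were fitted by strain alone with limma 3.58.1 in R 4.3.3, on log2(value + 1), eBayes with a trend and Benjamini-Hochberg adjustment over all genes. The fit and the depth estimate were tested on simulated data. Where the size factor exceeds 1, rounding merges neighbouring counts, so whole reads were not recovered and no count test was run. Intervals are 95% and are not adjusted for the number of genes. Replicates did not agree within sampling noise (chi-square per gene 15.3 to 113).

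Coordinates, exon lengths and shared 50-base windows came from GENCODE M21 (99.3% of tested symbols matched), and promoter windows from RefSeq on GRCm38.p6, read with Python 3.11.15, pandas 2.3.3 and Biopython 1.88. The members and lists were chosen with earlier results of these data known. Named genes are all members, the Tpm3 copy, up to 3 called genes per direction and list, and markers. One pathway list and 1 further gene are counted in the totals but not reported here. Rflna, Flnc, Arpc1a, Arpc5l and Srf were chosen after their values were seen. Further lists of markers for smooth muscle and fibroblasts (0 of 5 tested genes called), B cells (0 of 3), thymic epithelium (1 lower, Aire, of 4), platelets and erythroid cells (0 of 2), immature thymocytes (Cd8a higher and Rag1 lower of 6) and Treg (Cd3e higher and Trac lower of 10) were counted in the same fit.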

Additional observations from a re-analysis of the deposited data

How the results depend on the processing

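Capg, Rflnb, Ttn, Vcl and Pls3 kept their calls and directions in all 17 alternative fits. The numbers of members called higher and lower, 2 and 5, ran from 1 to 4 and from 4 to 6 over the omission of libraries. Without the variance trend they were 1 and 3, and the pathway genes went from 8 and 7 to 1 and 4. With library weights 8 members and 16 pathway genes were lower. Without a filter 4 pathway genes were higher. The omission of libraries gave 2 to 5 higher and 4 to 10 lower pathway genes. The causes were not tested. Apart from the replicate block given last, every other change of these counts was at most 1.5 times. The calls over all genes tested moved as well. They numbered 1626 of 16442 in the main fit, 2681 with library weights (1434 lower, against 871) and 1166 without the variance trend. Without a filter they were 1596 of 29372. With a single library left out they ran from 1105 of 17006 (B6 library 4) to 1774 of 17000 (NOD library 10). Rescaling by the trimmed mean of M-values or the median of ratios moved the median of all genes by -0.0083 and -0.0068.

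The sign of some members that did not pass the test turned. With library weights Coro1a was -0.065, Tpm4 0.072 and Ezr -0.16, and with the 2 rescalings Ezr was -0.0060 and -0.0044. Over the omission of libraries the log2 fold changes ran from -0.025 to 0.054 for Actb, -0.17 to 0.14 for Coro1a, -0.064 to 0.085 for Capza1, -0.11 to 0.036 for Capza2, -0.067 to 0.050 for Capzb, -0.017 to 0.36 for Actr2, -0.0011 to 0.11 for Actr3, -0.021 to 0.10 for Was, -0.14 to 0.14 for Tpm4 and -0.14 to 0.087 for Ezr. Tpm3 with its copy added was 0.072, chosen after seeing the data, as were the fits that drop or model NOD library 10 and B6 library 12 and the share without Ttn. The columns do not carry the labels' replicate numbers, but neighbouring column numbers allow a replicate block, also chosen after seeing the data. With it 3 members were higher and 5 lower, the added one being Tpm1 (adjusted p = 0.043), and 9 pathway genes were higher and 11 lower. The fit with the block called 2027 of all 16442 genes. Over 16442 genes the deviations of NOD library 2 and its neighbour B6 library 4 correlated at 0.0072. Those of 10 and 12 correlated at 0.18 and those of 18 and 20 at 0.13. NOD libraries 10 and 18 each correlated best with their neighbour, and NOD library 2 with B6 library 20 (0.098). Deviations of libraries of a strain depend on each other, so these correlations cannot settle whether neighbours are pairs. The main fit holds strain alone. With 3 libraries per strain, exact tests could not go below p = 0.10.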
